A study of Mus musculus with 16 samples.

Results

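The enzymes that write, copy and remove DNA methylation were followed across 4 groups of sorted germinal centre B cells. The members were the rows of the deposited count table with the symbols Dnmt1, Uhrf1, Dnmt3a, Dnmt3b, Tet1, Tet2 and Tet3, chosen by name and not by any measured value, 7 of 49584 rows. All 7 were among the 15240 genes with enough counts to test. The cells came from spleens of C57BL/6J mice aged 3 months, taken 8 days after immunization with sheep red blood cells. There were 4 libraries in each of 4 groups: mutant centrocytes, mutant centroblasts, control centrocytes and control centroblasts. The mutant mice, Ezh2(Y641F)fl/wt;Cγ1-cre+/-, carried 1 conditional allele of EZH2 Y641F, a change in the histone H3 lysine 27 methyltransferase that recurs in germinal centre lymphoma. The control mice carried Cγ1-cre+/- without that allele, so Cγ1-cre, which is driven from the IgG1 constant region locus in activated B cells, was present in both genotypes. All mice were labelled as litter 1. Germinal centre B cells were sorted as B220+, FAS+ and CD38-, then divided into centroblasts (CXCR4+, CD86-), the proliferating cells of the dark zone, and centrocytes (CXCR4-, CD86+), the cells of the light zone that are selected for affinity.

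DNA methylation at CpG sites is lost with each round of replication unless it is copied. UHRF1 recognises hemimethylated DNA at the replication fork and recruits DNMT1, the maintenance methyltransferase that restores the mark on the new strand. DNMT3A and DNMT3B, the de novo methyltransferases, place methylation on unmethylated sites. TET1, TET2 and TET3 oxidise 5-methylcytosine, which leads to its loss by dilution or by base excision repair. Germinal centre B cells divide rapidly and change their DNA methylation as they mature, DNMT1 is needed for the germinal centre reaction in mice, and TET2 and DNMT3A are mutated in human blood cancers.

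The promoters of these genes differ in their content of CpG, the sequence that the enzymes themselves act on. RefSeq start sites on GRCm38.p6 were found for 7 of the 7 genes, in 12 windows of 300 bases (250 before and 50 after the start). The stretches before the Dnmt3a and Dnmt3b starts are shown because these 2 genes differed in opposite directions between the genotypes. Every CG is in capitals, and both are given 5′ to 3′ on the plus strand. RefSeq gives Dnmt3a 3 starts, with 38, 40 and 15 CG before them, and the first of these is shown, chr12:3806730-3806979, where 98.1% of the 32851 mouse windows hold fewer than its 38 CG. The Dnmt3b stretch, chr2:153649199-153649448, holds 21 CG, and 83.7% of windows hold fewer, where the median is 6, so it lies below 2 of the Dnmt3a starts and above the other.
Dnmt3a: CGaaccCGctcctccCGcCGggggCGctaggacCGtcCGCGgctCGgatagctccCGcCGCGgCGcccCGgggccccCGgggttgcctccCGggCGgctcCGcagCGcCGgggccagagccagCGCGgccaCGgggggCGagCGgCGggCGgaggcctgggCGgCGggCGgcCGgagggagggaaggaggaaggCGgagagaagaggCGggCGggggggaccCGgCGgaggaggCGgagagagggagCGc
Dnmt3b: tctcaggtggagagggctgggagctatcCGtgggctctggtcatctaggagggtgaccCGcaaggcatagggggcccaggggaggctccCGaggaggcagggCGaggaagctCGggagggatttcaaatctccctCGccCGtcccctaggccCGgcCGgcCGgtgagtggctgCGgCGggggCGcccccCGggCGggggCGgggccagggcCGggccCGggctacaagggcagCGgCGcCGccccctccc
Before the Tet2 start there were 51 CG, the most of the 12 windows, and before the Tet1 and Tet3 starts there were 15 and 17. Of the 250 bases, 100 at Tet1 and 174 at Tet3 lay in annotated exons, against 0 at Tet2. The Tet1 and Tet3 starts lie well inside the annotated genes, whose 5′ ends are chr10:62908996 and chr6:83459084, so these stretches are not like for like.

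Dnmt1 and Uhrf1, which moved together across the libraries, were also the genes with letters of the E2F motif in a window. The windows were searched on both strands for the letters TTTCCCGC, TTTCGCGC, TTTGCCGC and TTTGGCGC, which are forms of the E2F motif. Of all 32851 windows, 744 (2.26%) held at least 1 of them. Among the 7 genes the letters were found at Dnmt1, in 1 of 3 windows, and at Uhrf1, in 1 of 2 windows. The 30 bases around the match are given 5′ to 3′ on the strand of the gene, with the match in capitals. The Dnmt1 stretch is chr9:20952824-20952853 on the minus strand, with its match read on the opposite strand and its first capital 219 bases before the start. The Uhrf1 stretch is chr17:56304117-56304146 on the plus strand, with its first capital 185 bases before the start.
Dnmt1: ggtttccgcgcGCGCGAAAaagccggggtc
Uhrf1: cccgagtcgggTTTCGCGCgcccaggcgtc
The same Dnmt1 window held another match, TTTGGCGC, 33 bases after the start. A match describes letters in the window and not binding. Both matched starts lie inside the annotated genes, whose 5′ ends are chr9:20959888 and chr17:56303321. Of the 250 bases before the Dnmt1 start, 166 lay in annotated exons, against 0 at Uhrf1. These stretches hold 26 and 30 CG, and 90.4% and 94.1% of windows hold fewer. All the letters searched for include a CG, so the share of all windows is not a like background.

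Each library held between 35230563 and 44466911 counted reads, and values are given as CPM, counts per 1000000 reads of the library total after TMM scaling, which corrects for RNA composition. By their Y-linked transcripts, libraries 1 and 2 in each group were male, and libraries 3 and 4 were female. Ezh2 itself was at 222 ± 32 CPM in mutant centroblasts and 289 ± 42 CPM in control centroblasts, while mutant centrocytes had 189 ± 15.2 CPM, against 245 ± 15 CPM for control centrocytes (SD, n = 4 each). Both differences were called (log2 fold change -0.38 ± 0.12 SE, adjusted p = 0.0486, and -0.37 ± 0.12 SE, adjusted p = 0.0395, by the edgeR test used throughout). The count does not tell the Y641F allele from the normal one, so it does not check the genotype label. The sort genes followed the labels, with Cxcr4 lower and Cd86 higher in centrocytes than in centroblasts of both genotypes. The 10 germinal centre B cell markers, among them Bcl6 and S1pr2, summed to between 5488 and 6855 CPM in every library. The 16 macrophage markers summed to 223, 148, 542 and 537 CPM in mutant centrocyte libraries 1 to 4, and to between 80.8 and 251 CPM in the other 12 libraries. No marker of either list was at 0 in any group. Results for mutant centrocytes are therefore also given without libraries 3 and 4 where a call was lost. These libraries are also the females of that group, so macrophage transcript and sex cannot be told apart in such fits.

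Per kilobase of exon, the maintenance pair stood far above the other enzymes. In mutant centrocytes, Dnmt1 was at 89.4 ± 15.5 CPM per kb and Uhrf1 at 61.2 ± 8.26 CPM per kb. Tet3 followed at 9.62 ± 1.47 CPM per kb, Dnmt3a at 3.66 ± 0.421 CPM per kb and Tet2 at 1.2 ± 0.213 CPM per kb. Dnmt3b was at 0.474 ± 0.122 CPM per kb and Tet1 at 0.0233 ± 0.00721 CPM per kb, the lowest level of the family (SD, n = 4 for each). This order of the 7 genes by mean held in mutant centroblasts and in control centrocytes. In control centroblasts Dnmt3b, at 0.993 ± 0.164 CPM per kb, was above Tet2, at 0.567 ± 0.19 CPM per kb. Tet1 was near the limit of the libraries, with 7 to 17 reads in mutant centrocytes, 2 to 11 reads in mutant centroblasts, 22 to 49 reads in control centrocytes and 21 to 31 reads in control centroblasts. It entered the test through its level in the other groups, since no mutant centroblast library reached the 0.259 CPM that the filter asked for.

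**Figure D1:**
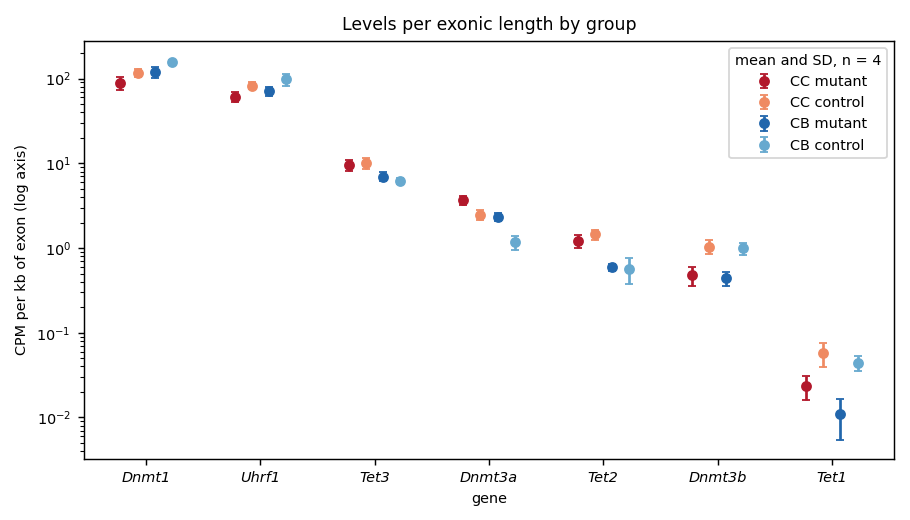
Level of each enzyme in CPM per kilobase of exon (log axis) in mutant centrocytes (CC), control centrocytes, mutant centroblasts (CB) and control centroblasts, with points for the mean and whiskers for the SD of 4 libraries. Dnmt1 and Uhrf1 lie at the top in every group, with means of 61.2 to 155 CPM per kb, and Tet1 lies at the bottom, with means of 0.0111 to 0.0577 CPM per kb.

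The first question of the design was what the Ezh2 mutation did within each cell type. Mutant cells had more Dnmt3a and less Dnmt3b, Tet1 and Uhrf1 than control cells, in centroblasts and in centrocytes alike. With the edgeR quasi-likelihood test and Benjamini-Hochberg adjustment over all 15240 genes at 0.05, 1 of the 7 genes was higher and 3 were lower in mutant centroblasts, against a background of 4.06% of all genes higher and 6.4% lower (10.5% in either direction). In mutant centrocytes 1 gene was higher and 3 were lower, against 7.37% and 9.15% of all genes (16.5% in either direction). One of the lower genes in each was Tet1, which entered the test through the groups where it is higher, so its place in these counts is no support for them. The background itself moved with the fit: the 2517 genes called in centrocytes became 1601, 1646 and 1641 without control centrocyte library 2, 3 or 4, 1224 without mutant centrocyte libraries 3 and 4, and 4036 when GC content and transcript length entered as an offset, under which the 1595 genes called in centroblasts became 2803. The median log2 fold change of the 7 genes was -0.38 in centroblasts and -0.39 in centrocytes, while that of all tested genes was 0.01 and 0. Under that offset the share of called genes that were higher in mutant centroblasts was 52.4%, against 38.8% without it, and the 4 genes stayed called in the same directions. The libraries of the 2 genotypes did not overlap for 4 of the 7 genes in centroblasts, against 14.4% of all tested genes, and for 4 of the 7 in centrocytes, against 23.5%. Tet1 was among these in each cell type, with the same limit, so it is no support for these counts either. The count of called genes in centrocytes fell to 2 without mutant centrocyte library 3 or without control centrocyte library 3. Of the 16 macrophage markers, 1 rose in mutant centroblasts and 3 rose in mutant centrocytes, with Mpeg1 called in both. Mpeg1 averaged 91.1 CPM in mutant centroblasts and 51.4 CPM in control centroblasts, where the 16 markers summed to 111 to 251 CPM and 80.8 to 139 CPM. It thus made up a large part of these sums, while Csf1r, Adgre1 and Mertk were called in neither cell type. Of 5 tested erythroid markers Hbb-bt rose in mutant centrocytes (log2 fold change 0.98, adjusted p = 0.00465), where the erythroid markers summed to 19.6 to 40.1 CPM, against 11.9 to 19.2 CPM in control centrocytes. Of 7 plasma cell markers 1 fell in each cell type, in centrocytes Prdm1 (-1.35, adjusted p = 0.0164), and of 7 tested T cell markers Cd5 rose in mutant centroblasts (0.97, adjusted p = 0.0114). The part of these cells in the genotype differences was not tested. Without mutant centrocyte libraries 3 and 4 the genes still called in centrocytes were Dnmt3a and Dnmt3b. That fit set male mutants against controls of both sexes. In bulk RNA, a change in the mix of cells and a change in transcript per cell cannot be told apart.

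Dnmt3a, a de novo methyltransferase, showed the clearest rise. It was at 43.7, 33.9, 40 and 37.1 CPM in the 4 mutant centroblast libraries and at 15.4, 21.5, 23.7 and 16.9 CPM in the 4 control centroblast libraries. Every mutant library lay above every control library, and the difference was 1.99-fold (log2 fold change 1.00 ± 0.14 SE, adjusted p = 0.00022 by edgeR). In centrocytes Dnmt3a was at 63.9, 62.9, 50.5 and 66.1 CPM in mutants and at 37.3, 38.1, 48.6 and 40.2 CPM in controls. The groups again did not overlap, although the lowest mutant value and the highest control value, both from library 3, were close, and the difference was 1.48-fold (log2 fold change 0.57 ± 0.14 SE, adjusted p = 0.011 by edgeR). Both calls were kept whichever of the 16 libraries was left out. Over the 4 groups the order was mutant centrocytes, control centrocytes, mutant centroblasts and control centroblasts, and control centrocytes and mutant centroblasts could not be separated beyond their spread.

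Dnmt3b, the other de novo methyltransferase, went the opposite way at a much lower level. It was at 2.49, 1.7, 2.63 and 2.18 CPM in mutant centroblasts and at 5.1, 6.25, 4.47 and 4.46 CPM in control centroblasts. The groups did not overlap, and the mutant level was 2.25-fold lower (log2 fold change -1.17 ± 0.21 SE, adjusted p = 0.00151 by edgeR). In centrocytes it was at 2.82, 2.09, 1.72 and 3.05 CPM in mutants and at 4.17, 5.08, 6.55 and 5.42 CPM in controls. All mutant libraries were again below all control libraries, by 2.19-fold on average (log2 fold change -1.13 ± 0.21 SE, adjusted p = 0.00174 by edgeR). These calls too were kept whichever library was left out, and they rested on 60 to 116 reads a library in mutant cells and 156 to 279 reads a library in control cells.

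The balance of the 2 de novo enzymes within a library differed between the genotypes in both cell types. The log2 ratio of Dnmt3a to Dnmt3b was 2.19 higher in mutant than in control centroblasts and 1.72 higher in mutant than in control centrocytes (2-sided exact permutation test over 70 splits of 4 against 4, p = 0.0286 each, the smallest this design allows; 0.044 after adjustment over 20 ratio tests). The log2 ratio of Dnmt3a to Dnmt1 was 1.39 higher in mutant centroblasts and 0.97 higher in mutant centrocytes than in their controls (exact permutation test, p = 0.0286 each, adjusted 0.044). Such differences do not depend on library scaling or gene length. In both cell types, mutant libraries lay wholly above controls for Dnmt3a and wholly below them for Dnmt3b. The p-value of that ratio therefore followed from the gene values and adds no support to them. The same holds for the ratio of Dnmt3a to Dnmt1 in centroblasts, where Dnmt1 did not overlap either.

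Tet1, the least abundant dioxygenase, was lower in mutants. It was at 0.157, 0.0548, 0.252 and 0.22 CPM in mutant centroblasts and at 0.61, 0.8, 0.533 and 0.8 CPM in control centroblasts, without overlap. The fitted difference was 3.92-fold lower (log2 fold change -1.97 ± 0.40 SE, adjusted p = 0.00346 by edgeR), on 2 to 11 reads a library in mutant centroblasts, so its size is uncertain. In centrocytes Tet1 was at 0.444, 0.43, 0.201 and 0.369 CPM in mutants and at 0.588, 1.17, 1.08 and 0.729 CPM in controls. The groups did not overlap, and the level was 2.46-fold lower in mutants (log2 fold change -1.30 ± 0.37 SE, adjusted p = 0.023 by edgeR). The centrocyte call was lost when mutant library 3 or 4 was left out (edgeR adjusted p = 0.0701 and 0.0539), when control library 2 or 3 was left out (0.079 and 0.0711), and when mutant libraries 3 and 4 were left out together (0.19). It was also lost with all libraries when the replicate block and the GC and length offset were fitted together (-1.03, 0.061), while each of these alone kept it.

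Tet2 and Tet3, the more abundant dioxygenases, were not called between genotypes. Tet2 was at 11.2, 9.04, 10.1 and 9.53 CPM in mutant centroblasts and at 11, 12.2, 10 and 4.95 CPM in control centroblasts, overlapping ranges (log2 fold change 0.06, 95% interval -0.4 to 0.52). In centrocytes it was at 23.3, 17, 23.5 and 17.3 CPM in mutants and at 19.9, 28.2, 25.3 and 24.3 CPM in controls (-0.27, 95% interval -0.72 to 0.19). Tet3 was at 116 ± 14.2 CPM in mutant centroblasts and 104 ± 7.5 CPM in control centroblasts, while mutant centrocytes had 161 ± 24.5 CPM and control centrocytes 169 ± 24.6 CPM (SD, n = 4 each). Its 95% intervals, -0.12 to 0.45 in centroblasts and -0.35 to 0.21 in centrocytes, leave room for a moderate change in either direction. Relative to Tet3, the log2 ratio of Tet1 was 2.35 lower in mutant than in control centroblasts (difference -2.35) and 1.24 lower in centrocytes (difference -1.24), with p = 0.0286 each by the exact permutation test and 0.044 adjusted. Tet1 was near the limit of the libraries and entered the test through the groups where it is higher, so these p-values are no support for its difference.

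**Figure D2:**
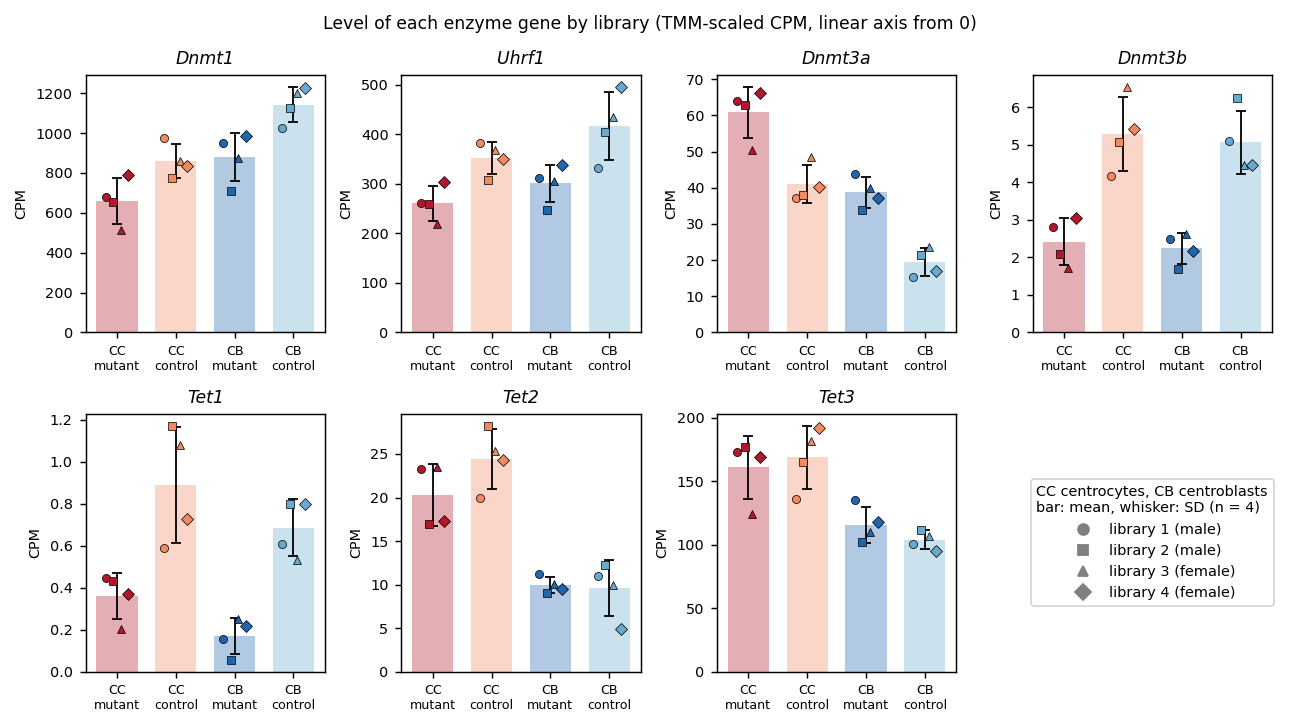
CPM of each of the 7 genes in mutant centrocytes (CC), control centrocytes, mutant centroblasts (CB) and control centroblasts, each panel with its own linear axis from 0, with points for the 4 libraries, bars for the mean and whiskers for the SD. Dnmt3a is higher and Dnmt3b and Tet1 are lower in mutants of both cell types, while Tet2 and Tet3 separate by cell type.

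Of the maintenance genes, Uhrf1 was lower in mutants, by a smaller amount. Uhrf1 was at 311, 248, 306 and 338 CPM in mutant centroblasts and at 332, 405, 436 and 496 CPM in control centroblasts. The groups overlapped at 1 library of each, and Uhrf1 was 1.39-fold lower in mutants (log2 fold change -0.47 ± 0.13 SE, adjusted p = 0.0284 by edgeR). In centrocytes it was at 260.5, 259, 218 and 304 CPM in mutants and at 382, 308, 368 and 351 CPM in controls, without overlap (1.35-fold lower, log2 fold change -0.44 ± 0.13 SE, adjusted p = 0.0326 by edgeR). Both calls lay close to the threshold. The centroblast call was lost without mutant library 1, 2 or 3 (edgeR adjusted p = 0.0588, 0.103 and 0.0553) or control library 2, 3 or 4 (0.0569, 0.0728 and 0.0632), and with the 2 compared groups fitted alone (0.0785). The centrocyte call was lost without mutant library 1, 2 or 3 (edgeR adjusted p = 0.0592, 0.0711 and 0.0946) or control library 1, 3 or 4 (0.0678, 0.0881 and 0.069), and with mutant libraries 3 and 4 both left out (0.118).

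Dnmt1 had a difference of like size that did not pass the threshold. It was at 950, 711, 877 and 986 CPM in mutant centroblasts and at 1026, 1124, 1199 and 1224 CPM in control centroblasts, without overlap (log2 fold change -0.38 ± 0.13 SE, adjusted p = 0.085 by edgeR). In centrocytes it was at 679, 652, 514 and 792 CPM in mutants and at 977, 775, 861 and 834 CPM in controls, with 1 library of each group overlapping (-0.39 ± 0.13 SE, adjusted p = 0.0551 by edgeR). DESeq2 called both (adjusted p = 0.0498 and 0.0303). With the replicate number as a block the edgeR adjusted p in centrocytes was 0.0459. It was 0.0387 with a filter on a mean of at least 1 CPM, 0.0496 with the compared groups alone and 0.0454 without immunoglobulin genes. Leaving out mutant centrocyte library 3 brought the centroblast result to 0.0449, and leaving out mutant centrocyte libraries 3 and 4 together brought it to 0.0442. Leaving out control centroblast library 1 or 4, mutant centroblast library 2 or mutant centrocyte library 4 brought the centrocyte result to 0.0451, 0.0488, 0.0414 and 0.0282. Under the GC and length offset the values were 0.00385 in centroblasts and 0.00572 in centrocytes. Apart from the fits that left out 1 library, Dnmt1 stayed uncalled in 9 of 13 other fits in centroblasts and in 6 of 13 in centrocytes.

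Replication and mitosis genes are given beside Dnmt1 and Uhrf1, which are transcribed mainly in dividing cells. Of 20 S phase genes, 0 rose and 7 fell in mutant centroblasts (median log2 fold change -0.33), and 0 rose and 4 fell in mutant centrocytes (-0.22). Of 16 mitosis genes, 0 rose in either cell type, 3 fell in mutant centroblasts (-0.31) and 10 fell in mutant centrocytes (-0.44). At an unadjusted p under 0.05, 0 genes of either list were higher in either cell type, and DESeq2 called 0 higher. Of all tested genes, 6.4% were called lower in mutant centroblasts and 9.15% in mutant centrocytes. A link of these lists to the lower Uhrf1 and Dnmt1 values was not tested. Between the genotypes, the ratio of Uhrf1 to Dnmt1 within a library differed by -0.08 in centroblasts and -0.04 in centrocytes on the log2 scale (exact permutation test, p = 0.314 each, 0.349 adjusted). Its differences by zone are given below.

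Other genes of the pathway were described from lists chosen by function. Of all tested genes, 10.5% were called in mutant centroblasts and 16.5% in mutant centrocytes. List counts near these shares are no result about a list. Of 5 tested maintenance partners, 0 were called in either cell type. Lower at an unadjusted p under 0.05 were 4 in mutant centroblasts and 2 in mutant centrocytes. By DESeq2, 1 was called lower in centroblasts and 0 in centrocytes. Hells, a remodeller that opens chromatin for DNA methylation, was at 133 ± 18.7 CPM in mutant centrocytes and 201 ± 40.9 CPM in control centrocytes (SD, n = 4 each; log2 fold change -0.60, adjusted p = 0.0986 by edgeR). Of 14 tested genes of base excision and deamination, 0 rose and 1 fell in mutant centroblasts, and 0 rose and 2 fell in mutant centrocytes, with 0 higher in either at an unadjusted p under 0.05 and 0 by DESeq2. Mbd4, a glycosylase for mismatches that arise at methylated CpG, fell in both, to 230.2 ± 14.1 CPM in mutant centroblasts against 305 ± 56.2 CPM in control centroblasts (log2 fold change -0.41 ± 0.11 SE, adjusted p = 0.0267 by edgeR) and to 172 ± 9.99 CPM in mutant centrocytes against 221 ± 13.4 CPM in control centrocytes (-0.36, adjusted p = 0.0373). Neil3, a glycosylase for oxidised bases, fell in mutant centrocytes to 27.5 ± 4.54 CPM, against 47.5 ± 7.96 CPM in control centrocytes (-0.79 ± 0.16 SE, adjusted p = 0.00257). Of 10 methyl-CpG readers, 0 were called in either cell type, with 3 and 1 lower at an unadjusted p under 0.05 and 0 called by DESeq2.

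A list of 12 genes was set for the supply of S-adenosylmethionine to the methyltransferases and 2-oxoglutarate to the TET enzymes. It includes Ogt, which is on the cofactor list too. Of the 12 genes, 0 rose and 1 fell in mutant centroblasts, and 2 rose and 2 fell in mutant centrocytes. In centroblasts 1 gene had an unadjusted p under 0.05 in the upward direction, and 0 were called higher by DESeq2. Idh2, which makes 2-oxoglutarate in mitochondria, fell in both, with a log2 fold change of -0.49 ± 0.14 SE in centroblasts (adjusted p = 0.0319 by edgeR) and -0.48 in centrocytes (adjusted p = 0.0276). Idh1, its cytosolic counterpart, rose in mutant centrocytes (0.48, adjusted p = 0.036), as did Mat2b, a regulatory subunit of the methionine adenosyltransferase (0.43, adjusted p = 0.0154). Of 6 tested cofactors of the TET and DNMT3 enzymes, 0 were called in either cell type, 0 at an unadjusted p under 0.05 and 0 by DESeq2.

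The other axis of the design set centrocytes against centroblasts of the same genotype. Centrocytes had more Dnmt3a, Tet2 and Tet3 and less Dnmt1 than centroblasts in both genotypes. In mutants 3 of the 7 genes were higher and 1 was lower, against 8.92% and 7.07% of all tested genes (16% in either direction). In controls 3 were higher and 1 was lower, against 14.9% and 12.9% of all tested genes (27.8% in either direction). The median log2 fold change of the 7 genes was 0.47 in mutants and 0.38 in controls, while that of all tested genes was 0.02 and 0. The libraries did not overlap for 2 of the 7 genes between the zones of mutants, against 22.1% of all tested genes, and for 4 of the 7 between those of controls, against 27.7%. The count in mutants fell to 2 without mutant centroblast library 3, mutant centrocyte library 1 or mutant centrocyte library 2. The 2 zone comparisons share no library with each other, but each shares its groups with the genotype comparisons above, so the values of one are not independent of the other.

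Tet2 had the largest zone difference of the called genes. It averaged 20.3 ± 3.59 CPM in mutant centrocytes and 9.98 ± 0.932 CPM in mutant centroblasts, with no overlap of the libraries given above (2.03-fold, log2 fold change 1.02 ± 0.21 SE, adjusted p = 0.0028 by edgeR). In controls it averaged 24.4 ± 3.45 CPM in centrocytes and 9.57 ± 3.2 CPM in centroblasts (SD, n = 4 each), again without overlap (2.55-fold, 1.35 ± 0.21 SE, adjusted p = 0.000179 by edgeR). Dnmt3a was 1.57-fold higher in centrocytes than in centroblasts of mutants (0.65 ± 0.14 SE, adjusted p = 0.00386 by edgeR) and 2.12-fold higher in those of controls (1.08 ± 0.14 SE, adjusted p = 3.47e-05), with no overlap in either. The Tet2 and Dnmt3a calls were kept in both genotypes whichever of the 16 libraries was left out.

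Tet3 rose less. It was at 173, 177, 124 and 169 CPM in mutant centrocytes and at 135, 102, 110.4 and 118 CPM in mutant centroblasts, where library 3 of the centrocytes fell inside the centroblast range (1.38-fold, log2 fold change 0.47 ± 0.13 SE, adjusted p = 0.0192 by edgeR). That call was lost without mutant centroblast library 2 or 3 (edgeR adjusted p = 0.0657 and 0.053) and without mutant centrocyte library 1 or 2 (0.0606 and 0.0598). In controls Tet3 was at 136, 165, 182 and 192 CPM in centrocytes and at 101, 112, 107 and 95.1 CPM in centroblasts, without overlap (1.63-fold, 0.70 ± 0.13 SE, adjusted p = 0.000698 by edgeR). The log2 ratio of Tet2 to Tet3 was 0.55 higher in centrocytes than in centroblasts of mutants and 0.73 higher in those of controls (exact permutation test, p = 0.0286 each, 0.044 adjusted). Tet1 was not called by zone, with log2 fold changes of 1.05 ± 0.41 SE in mutants (adjusted p = 0.0949 by edgeR) and 0.38 ± 0.35 SE in controls (0.453).

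Dnmt1 was 1.34-fold lower in centrocytes than in centroblasts of mutants (log2 fold change -0.42 ± 0.13 SE, adjusted p = 0.0393 by edgeR) and 1.33-fold lower in those of controls (-0.41 ± 0.13 SE, adjusted p = 0.0295). The mutant groups overlapped and the control groups did not. The mutant call was lost in 8 of the 16 fits that left out 1 library (mutant centroblasts 1, 3 and 4, mutant centrocytes 1, 2 and 3, control centroblasts 2 and control centrocytes 4), with adjusted p between 0.0508 and 0.119, and without mutant centrocyte libraries 3 and 4 together (0.0876). The control call was lost without control centrocyte library 2, 3 or 4 (edgeR adjusted p = 0.0907, 0.0615 and 0.0734) or control centroblast library 2, 3 or 4 (0.053, 0.0666 and 0.0647). Uhrf1 was not called by zone, with log2 fold changes of -0.21 in mutants (95% interval -0.5 to 0.08) and -0.24 in controls (95% interval -0.53 to 0.05). Under the GC and length offset it was called lower in both, with edgeR adjusted p of 0.0252 and 0.00418. Dnmt3b had nearly the same mean in both zones, 2.42 ± 0.621 CPM in mutant centrocytes and 2.25 ± 0.414 CPM in mutant centroblasts, while control centrocytes had 5.3 ± 0.983 CPM and control centroblasts 5.07 ± 0.84 CPM (SD, n = 4 each). The 95% intervals of its log2 fold change were -0.36 to 0.57 in mutants and -0.39 to 0.52 in controls.

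Beside the lower Dnmt1 of centrocytes, 0 of 20 S phase genes rose and 7 fell in mutants (median log2 fold change -0.30), and 0 rose and 16 fell in controls (-0.45). Of 16 mitosis genes, 0 rose and 12 fell in mutants (-0.84), and 0 rose and 10 fell in controls (-0.76). No gene of either list was higher at an unadjusted p under 0.05 or by DESeq2. Of all tested genes, 7.07% were called lower in mutant centrocytes and 12.9% in control centrocytes. A link of these lists to the lower Dnmt1 was not tested. The macrophage markers and naive B cell markers also moved with the zone. Of 16 macrophage markers 5 rose in mutant centrocytes and 2 in control centrocytes, and of 8 naive B cell markers 5 rose in each. The 10 T cell markers, of which Lck made up most of the sum (a mean of 299 CPM in mutant centrocytes and 185 CPM in mutant centroblasts) while the median marker was under 1 CPM in every group, summed to between 295 and 333 CPM in mutant centrocytes and 172 and 201 CPM in mutant centroblasts, while the control sums were 217 to 316 CPM in centrocytes and 111 to 175 CPM in centroblasts. Without mutant centrocyte libraries 3 and 4, which held the most macrophage transcript and were the females of that group, Dnmt3a, Tet2 and Tet3 stayed called higher in mutant centrocytes. That fit does not address the naive B cell and T cell markers. The part of these cells in the higher Dnmt3a, Tet2 and Tet3 of centrocytes was not tested in either genotype.

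Some partners of the enzymes were also called by zone. Of all tested genes, 16% were called in mutants and 27.8% in controls. Counts of the lists below that lie near these shares are no result about a list. Mbd2, a reader that binds methylated CpG and recruits a repressor complex, was at 287 ± 37.7 CPM in mutant centrocytes and 603 ± 23.9 CPM in mutant centroblasts (log2 fold change -1.07 ± 0.11 SE, adjusted p = 2.77e-06 by edgeR). In controls it was at 317 ± 24.6 CPM in centrocytes and 721 ± 70.3 CPM in centroblasts (-1.18, adjusted p = 6.2e-07). Of the 10 readers, 0 rose and 1 fell in mutants, where DESeq2 called 3 lower and 1 was higher and 3 were lower at an unadjusted p under 0.05, and in controls 1 rose and 2 fell. Uhrf2, a paralog of Uhrf1, had -0.30 in mutants (edgeR adjusted p = 0.0754) and fell in controls (-0.39, adjusted p = 0.0132), with no call for the interaction (0.999). Of the 14 base excision and deamination genes, 2 rose and 5 fell in mutant centrocytes, and 3 rose and 6 fell in control centrocytes. Neil1, a glycosylase for oxidised bases, was at 400.3 ± 71.7 CPM in mutant centrocytes and 803 ± 94.5 CPM in mutant centroblasts (log2 fold change -1 ± 0.13 SE, adjusted p = 3.78e-05 by edgeR). Gadd45g, linked to repair-based demethylation, was higher in centrocytes by a log2 fold change of 1.36 in mutants and 1.51 in controls, at a low level.

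Of the maintenance partners, 1 of 5 fell in mutant centrocytes and 2 fell in control centrocytes. Cdca7, which recruits Hells to chromatin, fell in both (log2 fold change -0.27 ± 0.089 SE in mutants, adjusted p = 0.0439 by edgeR, and -0.34 in controls, adjusted p = 0.00808). Pcna, the sliding clamp that DNMT1 binds at the fork, fell in control centrocytes (-0.45 ± 0.11 SE, adjusted p = 0.00557). Of the 12 supply genes, 0 rose (0 also at an unadjusted p under 0.05 and by DESeq2) and 2 fell in mutants, and 1 rose and 3 fell in controls. Idh2 was lower by a log2 fold change of -0.91 in mutants and -0.92 in controls, with 43.1 ± 5.59 CPM in mutant centrocytes and 80.9 ± 9.45 CPM in mutant centroblasts (SD, n = 4 each). Ogt, which glycosylates proteins and binds TET enzymes, was higher in control centrocytes (0.73, adjusted p = 0.0116) and was the sole cofactor of 6 that passed the test there. It is on both lists, and was also the 1 gene of the supply list that rose in controls. In mutants 0 of the 6 passed, by unadjusted p under 0.05 and by DESeq2 it was also 0. The interaction for Ogt was not called (edgeR adjusted p = 0.999).

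**Figure D3:**
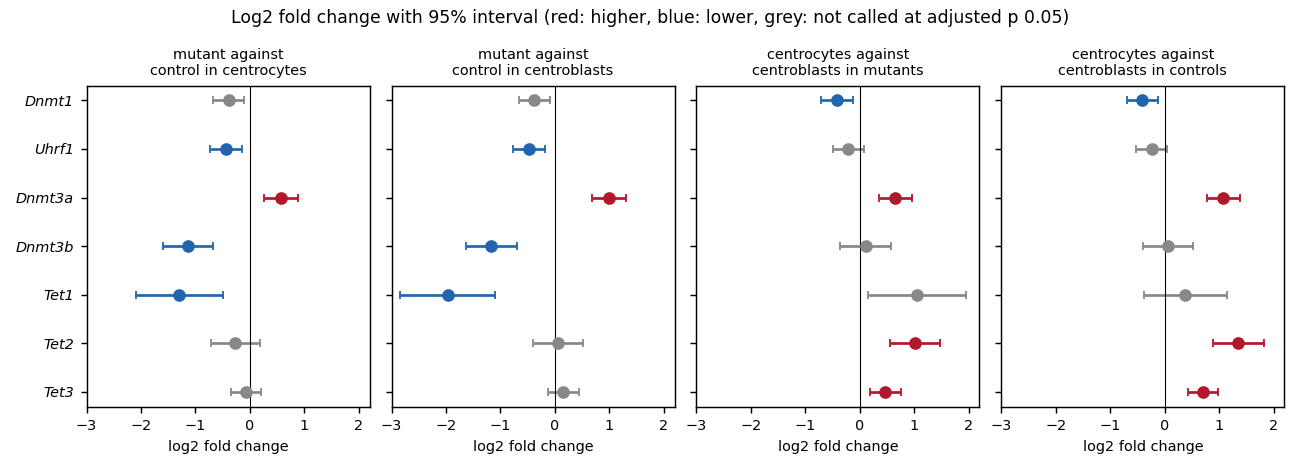
Log2 fold change with its 95% interval for each of the 7 genes in the 4 comparisons (mutant over control in centrocytes and in centroblasts, centrocytes over centroblasts in mutants and in controls), in red or blue where called higher or lower at an edgeR adjusted p under 0.05 and in grey otherwise. Dnmt3a is red in all 4 panels, Uhrf1, Dnmt3b and Tet1 are blue in the genotype panels, and Tet2 and Tet3 are red in the zone panels, where Dnmt1 is blue.

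Set in order of their group means, the genes fell into different patterns. Dnmt1 was highest in control centroblasts, followed by mutant centroblasts, control centrocytes and mutant centrocytes, and of neighbours in that order only the top 2 had libraries that did not overlap. Dnmt3b and Tet1 each had a single step without overlap, between control centroblasts and mutant centrocytes, with both control groups above it. Tet2 had its single step between mutant centrocytes and mutant centroblasts, with both centrocyte groups above it. For Uhrf1 and Tet3 all neighbours in the order overlapped.

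Whether the mutation acted differently in the 2 cell types was tested by the interaction of genotype and cell type. The edgeR test called 0 of the 7 genes and 0 of all 15240 genes (0%), and DESeq2 called 0 of the 7 and 1 of all genes. At an unadjusted p under 0.05 there were 1 of the 7 genes and 429 of all genes (2.81%). The 1 gene was Dnmt3a, whose genotype difference was smaller in centrocytes than in centroblasts by a log2 difference of -0.43 ± 0.20 SE (unadjusted p = 0.047, adjusted p = 0.999 by edgeR). The interaction values of the other genes lay between -0.33 (Tet2) and 0.67 (Tet1), with 95% intervals that all included 0.

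Because each group held 2 males and 2 females, the genotype difference was also fitted within each sex. In centroblasts Dnmt3a had a log2 fold change of 1.06 in males and 0.93 in females, and in centrocytes 0.74 in males and 0.38 in females, where the female value was not called (edgeR adjusted p = 0.213). Dnmt3b had -1.45 in males and -0.88 in females in centroblasts, and -0.92 and -1.33 in centrocytes, where the calls for centroblasts of females (0.136) and centrocytes of males (0.0808) were lost. Tet1 had -2.70 in males and -1.47 in females in centroblasts, and -1.02 and -1.66 in centrocytes, with the calls lost in female centroblasts (0.15) and male centrocytes (0.332). Uhrf1 lay between -0.41 and -0.52 and Dnmt1 between -0.37 and -0.41 in all 4 of these fits, and Uhrf1 was called in none of them. All 5 of these genes kept their direction in both sexes and both cell types. Tet2 and Tet3 did not, with Tet2 at -0.21 in males and 0.40 in females in centroblasts, and Tet3 at 0.21 in males and -0.36 in females in centrocytes. Each within-sex fit has 2 libraries a group.

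**Figure D4:**
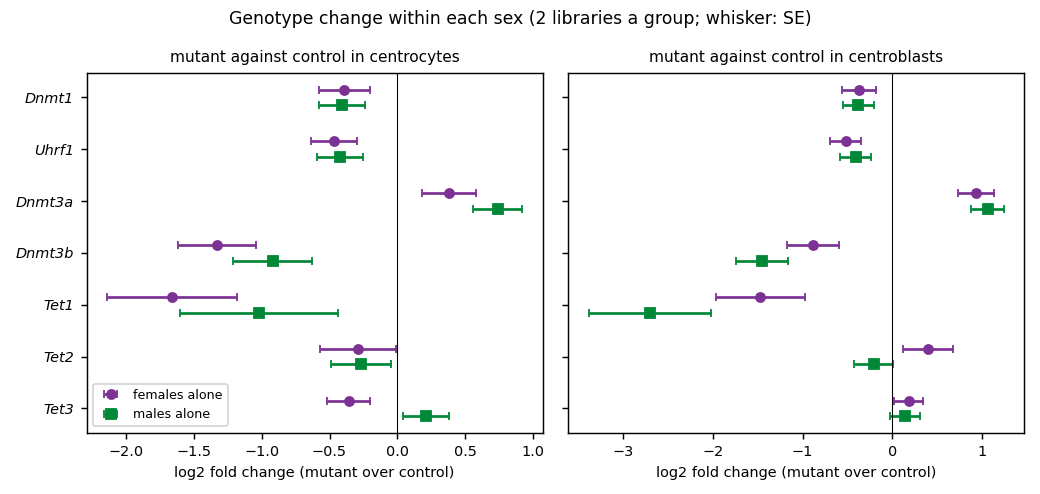
Log2 fold change of mutant over control within females (circles) and within males (squares) for each gene in centrocytes (left) and centroblasts (right), with 2 libraries a group and whiskers for the SE. Dnmt3a is above 0 and Dnmt1, Dnmt3b, Uhrf1 and Tet1 are below 0 in every fit, while Tet2 and Tet3 lie on either side of 0.

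Several of the 21 pairs of these genes followed one another across the 16 libraries. Dnmt1 and Uhrf1 had a Pearson r of log2 CPM of 0.924 over the 16 libraries and of 0.906 after the group means were taken out. Dnmt3b and Tet1 had 0.884, and 0.686 within groups. Tet2 and Tet3 had 0.829, but 0.243 within groups, so that most of their likeness lay between the groups. Dnmt3a and Tet3 had 0.763, and 0.693 within groups, while Dnmt3b and Tet3 had 0.131, and 0.714 within groups. Dnmt1 and Dnmt3a had -0.742 over all libraries and 0.508 within groups, opposite in sign. These values describe libraries that share group, depth and composition. Single libraries were low in several genes at once: mutant centroblast library 2 was the lowest of its group for 7 of 7 genes and mutant centrocyte library 3 was the lowest of its group for 6 of 7 (all but Tet2).

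Of all tested genes, those most like Uhrf1 over the 16 libraries were Chaf1a (r = 0.971), Phf2 (0.953) and Cdc25a (0.947). Within groups they were Mcm2 (0.972), Map3k4 (0.966) and Rab35 (0.957). Chaf1a encodes a chromatin assembly factor and Mcm2 a subunit of the replicative helicase. Those most like Dnmt1 over the 16 libraries were Lmnb1 (0.963), Add1 (0.958) and Akap12 (0.954). Within groups they were Pacsin2 (0.979), Sec31a (0.974) and Fem1a (0.962). Over the 16 libraries, those most like Dnmt3a were Ptpre (0.976), Pisd (0.974) and Chd7 (0.968), and for Dnmt3b they were Tmcc1 (0.963), Pde4dip (0.962) and Arhgef11 (0.961). For Tet1 they were Egln1 (0.953), Dnajb14 (0.948) and Dcbld1 (0.944). For Tet2 they were Fyco1 (0.984), F730311O21Rik (0.975) and Gm43197 (0.97), and for Tet3 they were Phf12 (0.975), Traf3 (0.973) and Elmsan1 (0.96). Each was picked as the highest among all other tested genes, over 16 points that fall into 4 groups.

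Overlap of these genes with other annotated genes was small. In GENCODE M21 on mm10, Dnmt3a (chr12:3806007-3914443, plus strand) shares 133 exonic bases with the antisense gene Dnmt3aos, which had 0 counts in all 16 libraries together. Tet2 (chr3:133463679-133545139, minus strand) shares 43 exonic bases with antisense Gm42567, which had 7 counts. The strand setting of the counting is not given in the sources used here, so reads of a gene and its antisense partner in these bases cannot be told apart. Dnmt1 (chr9:20907209-20959888, minus strand), Uhrf1 (chr17:56303321-56323486, plus strand), Dnmt3b (chr2:153649450-153687730, plus strand), Tet1 (chr10:62804570-62908996, minus strand) and Tet3 (chr6:83362373-83459084, minus strand) share no exonic base with another annotated gene. The counts are per gene, so isoforms of Dnmt3a, Dnmt3b and Tet1 are summed.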

How the data were processed

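RNA of 16 libraries was read from the deposited table, which holds whole-number read counts per gene symbol, without normalization. The authors used Trim Galore, cutadapt, STAR 2.5.3a and featureCounts 1.4.5-p1 of Subread on mm10, per the submitters' processing notes. The annotation and strand setting are not given in the sources used here. RNA was extracted in Trizol and libraries were made with TruSeq RNA kits, per the labels' protocols. Naive B cells are not analysed here.

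The counts were tested with edgeR 4.0.16 in R 4.3.3 (filterByExpr by group, TMM factors, quasi-likelihood test, 1 mean per group over 16 libraries, 12 residual degrees of freedom, 2-sided, Benjamini-Hochberg over 15240 genes, threshold 0.05). The script was tested on simulated counts. CPM are given as mean ± SD over libraries. SE come from the fit and intervals are 95%. Log2 CPM for correlations had a prior count of 2. Ratios within a library were compared by exact permutation.

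Alternatives were DESeq2 1.42.0, RLE factors, 2 other filters, the compared groups alone, a replicate block, sex, immunoglobulin genes left out, an offset for GC content and length, each sex alone, and each library left out. Names followed a rule: the 7 genes, and up to 4 called and 2 uncalled genes of each list, of which the text gives a part chosen after their values were seen. Some genes of the lists are not reported here. The enzymes and lists were chosen with earlier results of these data known. Coordinates and lengths are from GENCODE M21 by symbol, promoters from RefSeq on GRCm38.p6.

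The labels call the libraries biological replicates and tie no number to an animal. Deviations from group means of same-numbered mutant centrocyte and centroblast libraries correlated at 0.186 to 0.681, every pair above 0.1. In controls (-0.022 to 0.694) and between genotypes (-0.233 to 0.629 in centroblasts, -0.194 to 0.272 in centrocytes) not every pair was above 0.1. Centrocyte and centroblast libraries of different numbers reached 0.413 in mutants and 0.633 in controls. The best match was the same number for 3 of 4 mutant and 2 of 4 control centrocyte libraries. For the zone comparisons and the interaction, the blocked fit paired same-numbered libraries in both genotypes. For the genotype comparisons it used the number as a block shared by mutants and controls, although these values do not show such a pairing. Reads carry no molecular identifiers, so read numbers understate the error, and p-values rest on the spread between libraries.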

Additional observations from a re-analysis of the deposited data

Results flagged for a closer look

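Tet3 in mutant centrocyte library 3 was at 124 CPM, far below 173, 177 and 169 CPM in the other libraries of its group. Its gap to the nearest library exceeded Dixon's 95% critical value of 0.829 of the group's range. This was the single group of 28 examined that did so, and chance alone gives about 1 in 20. The same library was the lowest of its group for 6 of the 7 genes and had a macrophage marker sum of 542 CPM. Whether these are linked was not tested.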

How the results depend on the processing

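The number of called genes among the 7 was 4 in each of the 4 comparisons. Leaving out 1 library at a time gave 3 to 5 for mutant against control in centroblasts, 2 to 5 in centrocytes, 2 to 4 for centrocytes against centroblasts in mutants and 3 to 4 in controls. With females alone it was 1 in centroblasts, 2 in centrocytes, and 0 between mutant zones. With males alone it was 1 in centrocytes, 2 between mutant zones and 2 between control zones. Without mutant centrocyte libraries 3 and 4 it was 2 in centrocytes. These fits have fewer samples.

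With the replicate number as a block, the difference of Dnmt1 in centrocytes (-0.39) was called, with an adjusted p of 0.0459, and the block alone changed no other call. With the block and the GC and length offset together, Tet1 in centrocytes (-1.03) was no longer called (0.061), while the block alone gave 0.0394 and the offset alone 0.0453. Counts of called genes among all tested genes moved by over 1.5 times in these fits: between mutant zones, 2438 became 3933 with the offset and 4428 with the offset and the block, 1353 in males alone and 1060 in females alone. Between control zones, 4230 became 2007 in males alone. In centroblasts, 1595 became 1056 with the compared groups alone, 506 in females alone and 2926 with the offset and the block, and in centrocytes 2517 became 895 in males alone and 4185 with the offset and the block.

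Changes of sign concerned differences that were not called. Mutant against control, Tet2 in centroblasts was -0.21 in males alone and -0.16 to 0.19 with 1 library left out. Tet3 in centrocytes was 0.06 without mutant libraries 3 and 4, 0.21 in males alone, 0.05 with the GC and length offset, 0.04 with the offset and the block, and -0.17 to 0.03 with 1 library left out. Between zones, Dnmt3b in mutants was -0.03 in females alone and -0.02 to 0.24 with 1 library left out. In controls it was -0.3 in males alone, -0.01 with the offset, 0 with the offset and the block, and -0.05 to 0.18 with 1 library left out. For the interaction, Dnmt1 was 0.02 without mutant centrocyte libraries 3 and 4, 0.03 with the offset, 0.04 with the offset and the block, and -0.11 to 0.09 with 1 library left out. Uhrf1 was -0.01 in males alone and -0.06 to 0.13 with 1 library left out, and Tet3 was 0.06 in males alone. In females alone Dnmt3b was -0.45 and Tet1 was -0.19, and Dnmt3b was -0.09 to 0.17 with 1 library left out. The cause was not tested. Depth limits Tet1, which had 2 to 49 reads a library.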
